A study of Mus musculus with 8 samples.

Results

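The 9 genes described here encode secreted regulators of the transforming growth factor beta (TGF-beta) superfamily: the bone morphogenetic proteins Bmp2, Bmp4, Bmp5, Bmp6 and Bmp7, the BMP antagonist noggin (Nog), and the TGF-beta isoforms Tgfb1, Tgfb2 and Tgfb3. They were chosen by symbol from a table of 36317 gene symbols, and all 9 were found and passed the filter on low values. Bulk RNA sequencing of tissue dissected from mouse embryos gave the levels, with 2 libraries in each of 4 groups: forebrain of EED-cKO embryos aged 15.5 embryonic days (E15.5), forebrain of wt embryos of that age, and wt spinal cord and wt forebrain at E13.5. In EED-cKO embryos Eed, a core subunit of the repressive histone methyltransferase complex PRC2, is deleted by a Cre recombinase of the Sox1 gene. Sox1 is a gene of neural progenitors, so cells of other origin within the dissected tissue are not the target of the deletion. The alleles that wt embryos carried, and whether a library came from 1 embryo or a pool, are not given in the sources used here, and the p-values below rest on library-to-library spread alone.

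BMPs and TGF-betas are made as precursor proteins, cleaved, and secreted as dimers that assemble receptor kinases on the target cell. The receptors phosphorylate SMAD proteins, with SMAD1, SMAD5 and SMAD9 serving mainly BMPs and SMAD2 and SMAD3 mainly TGF-betas and activins, and these enter the nucleus with SMAD4. In the embryonic nervous system BMPs come from the roof plate, the dorsal midline of the forebrain, the choroid plexus and the overlying meninges, and they pattern dorsal cell types. Noggin binds BMPs outside the cell and keeps them from their receptors. TGF-betas are held in a latent complex until proteases or integrins release them.

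Levels were deposited as RPKM, read numbers scaled by gene length and by mapped reads and rounded to 0.1, so levels of different genes can be compared. Changes are differences of log2(RPKM + 1), each with a standard error (SE). This scale shrinks the change of a low gene, and a gene was called at a limma adjusted p under 0.05 over 17022 tested genes. All 4 groups shared 1 estimate of the spread, although their spreads differed. The median standard deviation (SD) between the libraries of a group was 0.117 on the log2 scale in wt E15.5 forebrain. It was 0.0543 in EED-cKO forebrain, 0.049 in E13.5 spinal cord and 0.0578 in E13.5 forebrain. The summed RPKM was 761647 to 843296 in the E15.5 libraries and 378294 to 397320 in the E13.5 libraries, so no test was made across ages. Values of the E15.5 columns were assigned to names sorted alphabetically, because the deposited row order put values of other genes beside the names of Nog and all 5 BMPs. Around each of the 9 genes, the 121 neighbouring names in that order gave r = 0.949 to 0.969 between E15.5 and E13.5 wt forebrain, and no shift of up to 6 rows gave more than 0.400. For the 13 names around the BMPs that change rows, r was 0.967 after matching and 0.123 before. Eed, the deleted gene, was at 10 and 10.6 RPKM in EED-cKO forebrain, against 25.8 and 27.9 RPKM in wt E15.5 forebrain (log2 change −1.30 ± 0.085 SE, limma adjusted p = 8.65e-05). At E15.5, 6 of 9 forebrain markers were called lower and 2 higher in EED-cKO forebrain, and 8 of 9 spinal cord markers were called higher. The 9 spinal cord markers summed to 120.9 and 103.5 RPKM in EED-cKO, against 32.0 and 27.5 RPKM in wt. All of the wt sum was Isl1, which was not called (45.2 and 36.0 RPKM in EED-cKO). The 8 called markers were at 0 in both wt libraries. At E13.5 all 9 spinal cord markers were called higher and all 9 forebrain markers lower in spinal cord than in forebrain.

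The 9 genes lie on 8 mouse chromosomes. In GRCm38 (GENCODE M21) Bmp2 is at chr2:133552159-133562885 and Bmp7 at chr2:172868012-172940321, Bmp4 at chr14:46383520-46390669, Bmp5 at chr9:75775364-75900310 and Bmp6 at chr13:38345107-38500302. Nog is at chr11:89300638-89302332, Tgfb1 at chr7:25687002-25705077, Tgfb2 at chr1:186622792-186705989 and Tgfb3 at chr12:86056745-86079041, and all are protein coding. RefSeq promoter sequences (GRCm38.p6) were matched for 5 of the 9, and all 5 genes were called higher in EED-cKO forebrain. The 250 bases before the start are shown for the 3 whose window holds no annotated exon of the gene itself. The Tgfb2 window overlaps an exon of the antisense gene Gm29491. CG dinucleotides, which are dense in the CpG islands that PRC2 often occupies in mammals, are in capitals. Each sequence is given 5′ to 3′ on the strand of its gene.
Bmp4, chr14:46390670-46390919, minus strand: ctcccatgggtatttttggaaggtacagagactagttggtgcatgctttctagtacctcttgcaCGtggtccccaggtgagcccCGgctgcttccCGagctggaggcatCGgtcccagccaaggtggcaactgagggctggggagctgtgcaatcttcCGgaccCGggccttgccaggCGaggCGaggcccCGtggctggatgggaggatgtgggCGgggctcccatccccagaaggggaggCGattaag
Tgfb1, chr7:25686752-25687001, plus strand: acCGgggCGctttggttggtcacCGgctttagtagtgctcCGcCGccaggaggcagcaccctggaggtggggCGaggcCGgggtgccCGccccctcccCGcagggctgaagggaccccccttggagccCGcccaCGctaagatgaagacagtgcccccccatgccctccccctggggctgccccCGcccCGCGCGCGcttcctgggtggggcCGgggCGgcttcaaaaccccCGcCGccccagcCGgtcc
Tgfb2, chr1:186705990-186706239, minus strand: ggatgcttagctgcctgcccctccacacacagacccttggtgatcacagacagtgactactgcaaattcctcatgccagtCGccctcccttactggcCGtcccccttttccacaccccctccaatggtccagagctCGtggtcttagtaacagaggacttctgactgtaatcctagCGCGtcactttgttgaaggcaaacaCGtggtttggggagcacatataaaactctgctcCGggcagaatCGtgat
The Tgfb1 window held 21 CG dinucleotides, a number that 16.3% of all 32851 promoter windows reach, the Bmp4 window held 11 (35.6% reach it) and the Tgfb2 window 8 (43.0%), where the median window holds 6. Bmp6, whose window is not shown, held 22 (14.8%), and Bmp5 held 4 (62.2%). The Bmp6 window, chr13:38345466-38345715, lies inside the GENCODE gene and overlaps a Bmp6 exon. Its number is therefore not one of bases before the GENCODE start of Bmp6. The letters TATAAA, searched on both strands, were in the Tgfb2 window and in none of the other 4, and 12.4% of all windows hold them. GGCGCC, a GC-rich sequence that BMP SMADs bind, was in none of the 5 windows and in 9.59% of all. GTCTAGAC, the palindromic SMAD box, was in none of the 5 and in 0.167% of all.

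At E15.5 the study set EED-cKO against wt forebrain, to find what changes in the developing brain without EED. All 5 BMPs and all 3 TGF-betas were higher in EED-cKO forebrain, by 1.68 to 2.78 times, and the antagonist Nog was lower, at 0.589 times the wt level. Of all tested genes 46.9% were called, 30.2% higher and 16.7% lower (5149 and 2838 genes). After quantile normalization 3540 genes were called higher and 4314 lower. The median log2 change of the 9 genes was 1.06, against 0.08 over all tested genes. Quantile normalization moved the median of all genes to −0.05, and each of the 9 kept its direction under it and under median-ratio scaling. The 2 groups did not overlap for any of the 9, where this held for 70.3% of all tested genes.

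**Figure D1:**
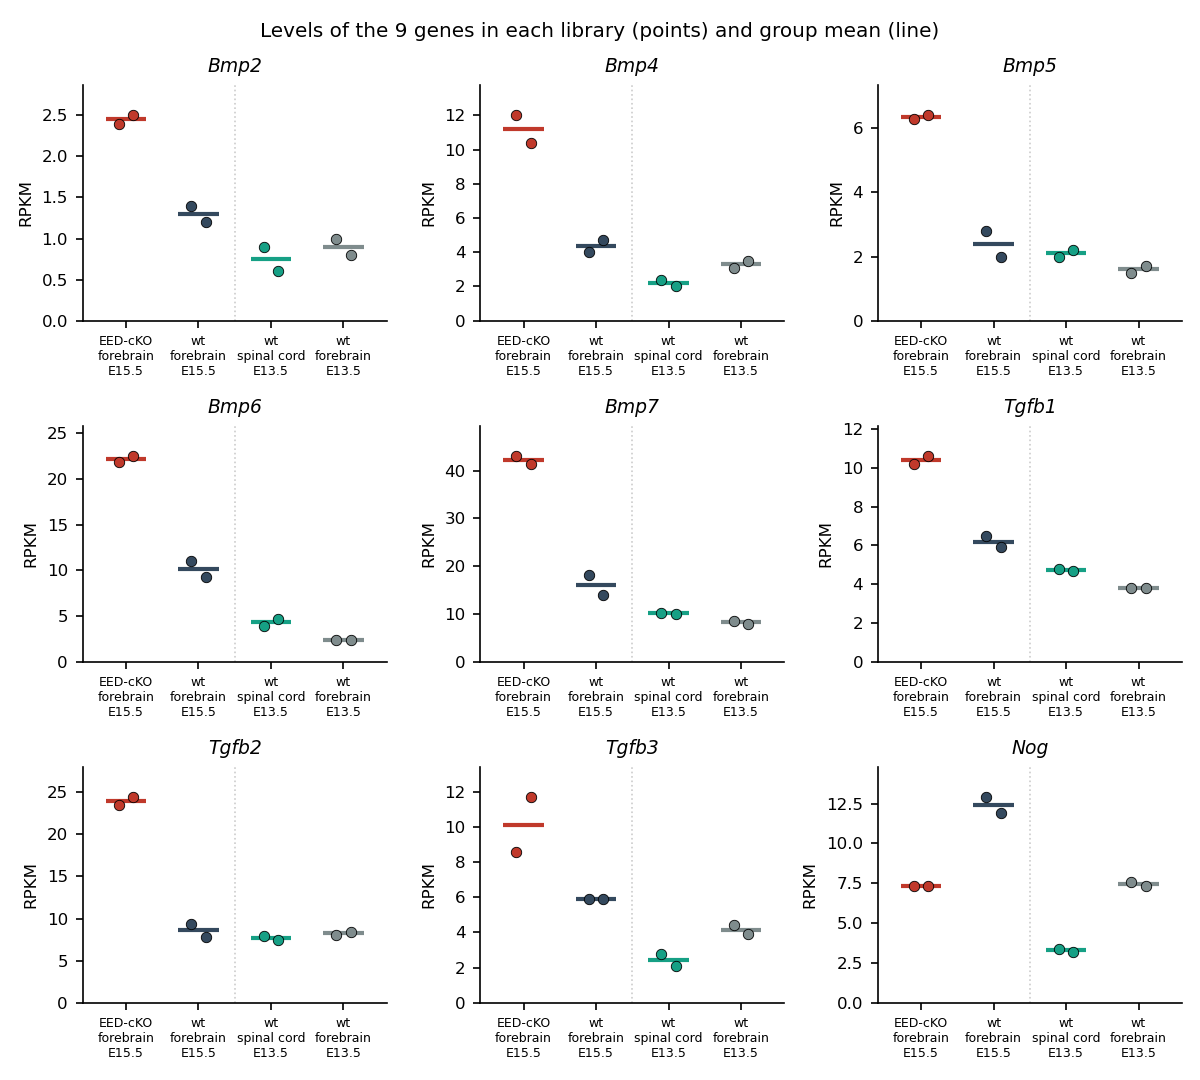
RPKM of each of the 9 genes in the 8 libraries, with points for libraries, a line for the mean of the 2 libraries of a group, and linear axes that start at 0 and differ between panels. The dotted line parts the E15.5 from the E13.5 libraries, which were not tested against each other. For the 8 ligands both EED-cKO libraries lie above both wt E15.5 libraries, and for Nog both lie below.

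Bmp4 and Bmp2 form one subgroup of closely related ligands, which dorsal midline cells use to pattern the forebrain. Bmp4 was at 12.0 and 10.4 RPKM in EED-cKO forebrain, against 4.0 and 4.7 RPKM in wt E15.5 forebrain. The rise was 1.19 ± 0.12 (SE) on the log2 scale (limma adjusted p = 0.00040). Bmp2 was the lowest of the 9 genes in every group, at 2.4 and 2.5 RPKM in EED-cKO and 1.4 and 1.2 RPKM in wt, and it rose by 0.59 ± 0.11 (limma adjusted p = 0.00528). After quantile normalization the log2 change of Bmp2 was 0.24 and was not called (limma adjusted p = 0.0911).

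Bmp5, Bmp6 and Bmp7 form the other subgroup, and Bmp7 was the most abundant of the 9 genes in both E15.5 groups. Bmp7, a ligand of meninges and dorsal midline, was at 43.0 and 41.4 RPKM in EED-cKO forebrain, against 18.2 and 13.9 RPKM in wt (log2 change 1.35 ± 0.12 SE, limma adjusted p = 0.00024). Bmp6 was at 21.9 and 22.5 RPKM in EED-cKO and 11 and 9.3 RPKM in wt, a rise of 1.06 ± 0.11 (limma adjusted p = 0.000429). For both genes the lower EED-cKO library exceeded the higher wt library. Bmp5, the least abundant of the 3, was at 6.3 and 6.4 RPKM in EED-cKO and 2.8 and 2.0 RPKM in wt (1.12 ± 0.13, limma adjusted p = 0.000589). Reads were unstranded, and genes on the opposite strand share exon bases with 5 of the 9 genes. Txndc5 shares 224 of the 3900 exon bases of Bmp6 and was itself at 72.4 and 72.0 RPKM in EED-cKO and 47.3 and 46.2 RPKM in wt. The antisense gene Gm26903, not analysed here, shares 1878 of the 4025 exon bases of Bmp5. Gm48008 and Gm37804 share 257 and 163 of the 3383 exon bases of Tgfb3, Gm29491 shares 124 of the 5791 of Tgfb2, and Gm15217, at 0.1 RPKM or less, shares 89 of the 2248 of Bmp4. What these overlaps add to the values was not tested.

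Among the TGF-betas, Tgfb2 had the largest log2 change of the 9 genes. Tgfb2, the isoform with broad roles in neural and heart development, was at 23.5 and 24.4 RPKM in EED-cKO, against 9.4 and 7.8 RPKM in wt E15.5 forebrain (log2 change 1.38 ± 0.096 SE, limma adjusted p = 0.000103). Its EED-cKO mean was 2.78 times the wt mean. Tgfb1, the isoform that microglia need, was at 10.2 and 10.6 RPKM in EED-cKO and 6.5 and 5.9 RPKM in wt (0.66 ± 0.082, limma adjusted p = 0.000843). Tgfb3, best known for its role in palate fusion, was at 8.6 and 11.7 RPKM in EED-cKO, while both wt libraries were at 5.9 RPKM (0.68 ± 0.16, limma adjusted p = 0.0115). Replicate 2 of EED-cKO set much of the Tgfb3 value. Without it the log2 change was 0.48 and was not called (limma adjusted p = 0.0743), and the call was also lost without wt E15.5 replicate 2 (0.68, adjusted p = 0.0579), after quantile normalization (0.40, adjusted p = 0.0592) and with only the 4 E15.5 libraries in the fit (0.68, adjusted p = 0.0661).

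Nog, the only antagonist among the 9, went the other way. It was at 7.3 RPKM in both EED-cKO libraries, against 12.9 and 11.9 RPKM in wt E15.5 forebrain, and fell by 0.69 (SE 0.080) on the log2 scale (limma adjusted p = 0.000677). Nog was the second most abundant of the 9 genes in wt E15.5 forebrain and the seventh in EED-cKO. Under the deposited row order its name stands beside values of 0.1 and 0.2 RPKM in EED-cKO and 0.1 and 0.0 RPKM in wt, and its log2 change was 0.13.

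**Figure D2:**
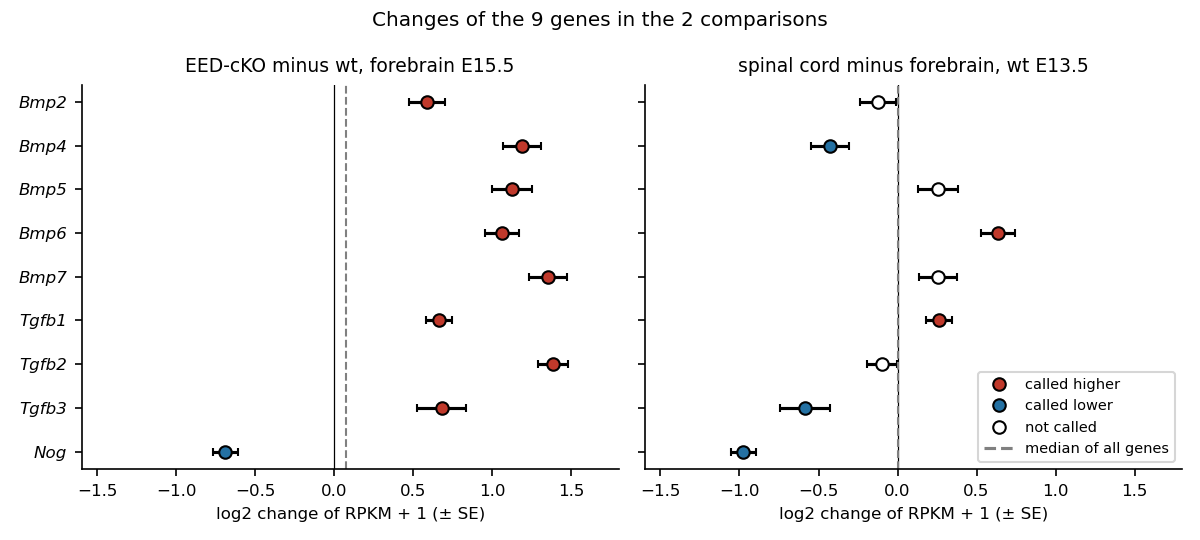
Log2 change of RPKM + 1 of each gene with its SE (bars), EED-cKO minus wt E15.5 forebrain on the left and wt spinal cord minus wt forebrain at E13.5 on the right, with filled points for genes called by limma at an adjusted p under 0.05 over all tested genes. On the left 8 genes lie between 0.59 and 1.38 and Nog at −0.69, and on the right the genes lie on both sides of 0.

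In EED-cKO forebrain Bmp7 averaged 42.2 ± 1.13 RPKM (SD, n = 2), followed by Tgfb2 at 23.95 ± 0.636 and Bmp6 at 22.2 ± 0.424, with no overlap between neighbours. Bmp4 (11.2 ± 1.13), Tgfb1 (10.4 ± 0.283) and Tgfb3 (10.15 ± 2.19) came next and overlapped, above Nog (7.3), Bmp5 (6.35 ± 0.0707) and Bmp2 (2.45 ± 0.0707). In wt E15.5 forebrain the order was Bmp7 (16.05 ± 3.04), Nog (12.4 ± 0.707), Bmp6 (10.15 ± 1.2) and Tgfb2 (8.6 ± 1.13), of which Bmp6 and Tgfb2 overlapped. Tgfb1 (6.2 ± 0.424) and Tgfb3 (5.9 in both) also overlapped, and Bmp4 (4.35 ± 0.495), Bmp5 (2.4 ± 0.566) and Bmp2 (1.3 ± 0.141) stood below them. The summed level of the 9 genes was 135.2 and 137.2 RPKM in EED-cKO and 72.1 and 62.6 RPKM in wt.

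Beyond the 9 genes, 93 other genes of the pathway were listed by role, and 75 of them were tested. In EED-cKO forebrain 38 of the 75 were called higher, 9 lower and 28 not called, with a median log2 change of 0.31. Over all tested genes 30.2% were called higher and 16.7% lower, and the list counts below stand beside the same shares. Gdf15, Hfe2, Fstl3 and Cdkn2b were below 1 RPKM in every wt library, and Smad9 in all but 1, so these 5 genes passed the filter on low values only through EED-cKO and had to differ. Inhba was below 1 RPKM in every library outside wt E15.5 forebrain, so it passed only through that group and had to differ too.

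Of 24 other ligands of the superfamily, 12 were tested, and 5 were higher and 3 lower. Gdf10, a BMP3-like ligand, was at 28.1 and 31.5 RPKM in EED-cKO, against 9.5 and 8.7 RPKM in wt (log2 change 1.61 ± 0.17 SE, limma adjusted p = 0.000429). Gdf15, a stress-induced ligand, was at 1.2 and 1.1 RPKM in EED-cKO and 0.2 and 0.1 RPKM in wt (0.90 ± 0.085). Inhba and Inhbb, which encode activin subunits, fell. Inhba was at 0.2 RPKM in each EED-cKO library, against 3.0 and 1.7 RPKM in wt (log2 change −1.45 ± 0.17), and Inhbb was at 6.0 and 6.2 RPKM in EED-cKO and 12.7 and 12.2 RPKM in wt (−0.92 ± 0.11).

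Of 15 tested receptors and co-receptors, 6 were higher, 1 was lower and 8 were not called. Tgfbr3, the co-receptor betaglycan, was at 5.7 and 6.7 RPKM in EED-cKO and 2.3 and 1.5 RPKM in wt (log2 change 1.32 ± 0.16 SE), and Tgfbr2, the ligand-binding receptor, at 18.1 and 21.3 RPKM in EED-cKO and 10 and 7.2 RPKM in wt (1.12 ± 0.15). Hfe2, the BMP co-receptor hemojuvelin, was at 1.9 and 2.6 RPKM in EED-cKO and 0.4 and 0.6 RPKM in wt. Acvrl1, a receptor of endothelial cells, rose by 0.56 ± 0.093. Rgmb, a BMP co-receptor of neurons, was at 59.6 and 56.8 RPKM in EED-cKO and 66.5 and 59.1 RPKM in wt and was not called (limma adjusted p = 0.295). Of the 8 SMAD genes, 3 rose and 2 fell. Smad9 (log2 change 1.09 ± 0.14), which transmits BMP signals, Smad6 (0.72 ± 0.12), which inhibits them, and Smad3 (0.64 ± 0.11), which transmits TGF-beta signals, were higher. The Smad6 call was lost after quantile normalization (log2 change 0.38, limma adjusted p = 0.0513). Smad4, the common partner, was lower, at 37.4 and 40.5 RPKM in EED-cKO and 59.1 and 54.4 RPKM in wt (log2 change −0.53 ± 0.070). Smad1, which transmits BMP signals, was at 36.2 and 35.0 RPKM in EED-cKO and 39.2 and 36.1 RPKM in wt and was not called (limma adjusted p = 0.415).

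Of 13 tested BMP antagonists and modulators, Nog included, 7 were higher and 2 lower. Sostdc1, which binds BMPs and is a gene of the choroid plexus, was at 37.1 and 30.0 RPKM in EED-cKO and 10.3 and 8.3 RPKM in wt (log2 change 1.75 ± 0.16 SE). Fstl1 (122.7 and 133.6 RPKM in EED-cKO, 66.5 and 56.6 RPKM in wt) rose by 1.05 ± 0.091, and Nbl1, a secreted BMP antagonist, by 0.97 ± 0.075. Chordin (Chrd) was at 9.8 and 7.8 RPKM in EED-cKO and at 6.9 RPKM in both wt libraries and was not called (limma adjusted p = 0.0573). Of 11 tested genes of TGF-beta latency and activation, 5 were higher and 6 were not called. The latent TGF-beta binding protein genes Ltbp3 (1.26 ± 0.10) and Ltbp4 (0.90 ± 0.088), the integrin gene Itgav (0.89 ± 0.14) and Lrrc32 (0.89 ± 0.19), which encodes a cell surface anchor of latent TGF-beta, rose on the log2 scale. The Lrrc32 call was lost without EED-cKO replicate 2 (log2 change 0.76, limma adjusted p = 0.0797) and with only the 4 E15.5 libraries in the fit (0.89, adjusted p = 0.0759). Furin, which cleaves TGF-beta precursors, was at 21.9 and 24.1 RPKM in EED-cKO and 21.1 and 17.7 RPKM in wt (limma adjusted p = 0.0967).

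Of 12 genes listed as BMP targets, 10 were higher, 1 was lower and 1 was not called. The lists overlap, since Smad6 and Smad7 are also counted as SMAD genes, Bambi as a BMP antagonist, and Smad7 again as a TGF-beta target. Msx1, a homeobox gene of the dorsal midline, was at 42.7 and 35.5 RPKM in EED-cKO and 10.9 and 9.9 RPKM in wt (log2 change 1.81 ± 0.22 SE), and Lmx1a, a roof plate factor, was at 13.6 and 12.9 RPKM in EED-cKO and 3.9 and 3.7 RPKM in wt (1.57 ± 0.091). Msx2 rose by 1.11 ± 0.094. Id2, an inhibitor of basic helix-loop-helix factors, had the largest change of the list and went the other way, at 49.1 and 51.5 RPKM in EED-cKO and 260.8 and 302.1 RPKM in wt (log2 change −2.46 ± 0.086, limma adjusted p = 8.44e-06). The inhibitory Smad7 was not called (8.1 and 7.4 RPKM in EED-cKO, 6.6 and 6.5 RPKM in wt, limma adjusted p = 0.097). Of 9 tested TGF-beta targets, 4 were higher and 1 was lower. Cdkn2b, which inhibits G1 kinases, was at 16.9 and 17.3 RPKM in EED-cKO and 0.6 and 0.4 RPKM in wt (3.60 ± 0.096), and Tgfbi, Cdkn1a and Ctgf rose by 1.64 ± 0.14, 1.52 ± 0.094 and 0.78 ± 0.11. Skil and Ski, nuclear repressors of SMADs, were not called (limma adjusted p = 0.105 and 0.218).

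**Figure D3:**
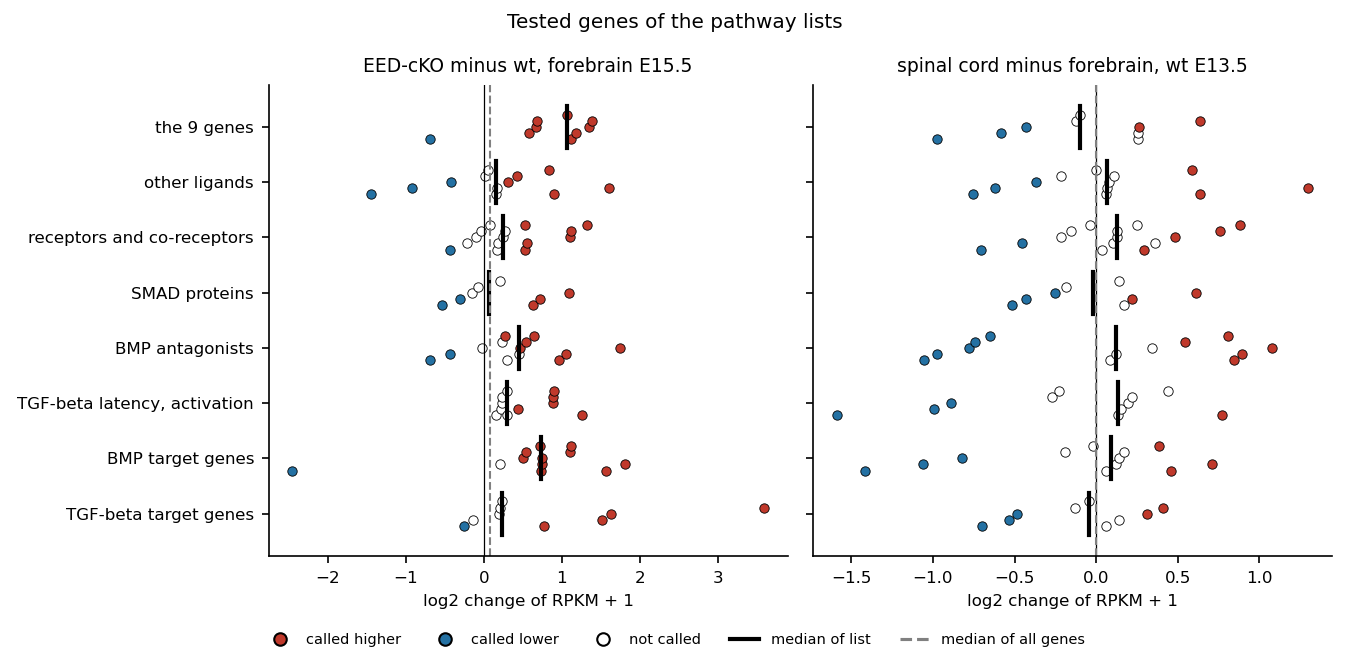
Log2 change of RPKM + 1 of every tested gene in the 9-gene set and in 7 pathway lists (points), with EED-cKO minus wt E15.5 forebrain on the left and wt spinal cord minus wt forebrain at E13.5 on the right. Thick bars are list medians and the dashed line is the median of all tested genes. On the left the 9 genes have a median of 1.06 and the BMP targets of 0.74, and on the right all list medians lie within 0.14 of 0.

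Markers of other cell types also differed between EED-cKO and wt E15.5 forebrain. Of 11 choroid plexus and dorsal midline markers, 8 were called higher, among them Lmx1a, which is also counted as a BMP target, and Kl, which passed the filter on low values only through EED-cKO. The 3 that were not called were the midline genes Wnt3a, Rspo2 and Rspo3, with Rspo3 at 10.5 and 10.8 RPKM in EED-cKO and 11.7 and 14.2 RPKM in wt. The summed level was 5863 and 4596 RPKM in EED-cKO and 2158 and 2318 RPKM in wt. Most of this sum was Ttr, the transthyretin gene of choroid plexus epithelium, at 5652.1 and 4411.6 RPKM in EED-cKO and 2072.2 and 2232.5 RPKM in wt. All 11 meningeal and mesenchymal markers were higher, with sums of 776.4 and 945.8 RPKM in EED-cKO and 260.9 and 203.3 RPKM in wt. All 8 endothelial markers (255.8 and 264.5 RPKM in EED-cKO, 178.4 and 169.3 RPKM in wt), 6 of 7 pericyte markers (220.9 and 224.6 RPKM, against 151.5 and 133.5 RPKM in wt) and 6 of 7 tested microglial markers (138.1 and 151.1 RPKM, against 77.5 and 82.5 RPKM in wt) were higher too. Of 8 neural markers 3 were lower, 1 was higher and 4 were not called, with sums of 3258 and 3127 RPKM in EED-cKO and 4159 and 4336 RPKM in wt. No marker of the 5 non-neural or midline lists was at 0 in both libraries of an E15.5 group. The part of such cells in the changes of the 9 genes was not tested, and in bulk tissue more cells of a type cannot be told apart from more RNA per cell.

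**Figure D4:**
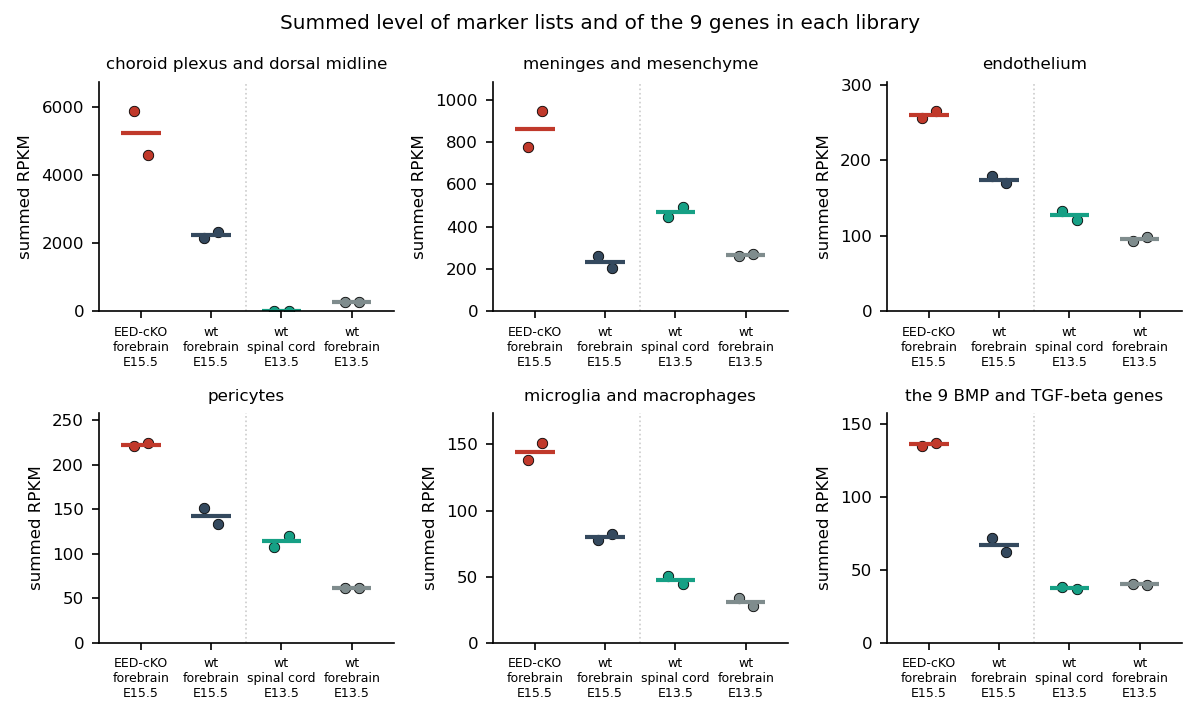
Summed RPKM of 5 lists of markers of non-neural or midline cells and of the 9 genes in each library (points), with the group mean (line), on linear axes that start at 0 and differ between panels. In the E15.5 libraries every list is higher in EED-cKO than in wt, and between the E13.5 tissues the choroid plexus sum is 5.9 and 5.3 RPKM in spinal cord and 264.6 and 272.6 RPKM in forebrain.

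The comparison of wt spinal cord with wt forebrain at E13.5 gave the regional difference of the same genes. Nog, Bmp4 and Tgfb3 were lower and Bmp6 and Tgfb1 higher in spinal cord, and the other 4 were not called. Of all tested genes 45.7% were called, 21.8% higher and 23.9% lower. The median log2 change of the 9 genes was −0.10, against 0.00 over all tested genes, and the groups did not overlap for 8 of the 9, where this held for 76.3% of all tested genes.

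Nog had the largest regional change. It was at 3.4 and 3.2 RPKM in spinal cord and 7.6 and 7.3 RPKM in forebrain (log2 change −0.97 ± 0.080 SE, limma adjusted p = 0.000105). Bmp6 was at 3.9 and 4.7 RPKM in spinal cord, against 2.4 RPKM in both forebrain libraries (0.64 ± 0.11, limma adjusted p = 0.00301). The calls of Nog and Bmp6 held with each of the 8 libraries left out, 1 at a time. Bmp4 was at 2.4 and 2.0 RPKM in spinal cord and 3.1 and 3.5 RPKM in forebrain (−0.43 ± 0.12, limma adjusted p = 0.024). That call was lost without spinal cord replicate 2 (−0.34, adjusted p = 0.138) and without forebrain replicate 1 (−0.49, adjusted p = 0.0535) or 2 (−0.36, adjusted p = 0.134), and when genes with low values were kept (adjusted p = 0.0537). Tgfb3 was at 2.8 and 2.1 RPKM in spinal cord and 4.4 and 3.9 RPKM in forebrain (−0.58 ± 0.16, limma adjusted p = 0.0204), a call lost without the same 3 libraries (−0.44, −0.51 and −0.65, adjusted p = 0.128, 0.110 and 0.0633). It was also lost when genes with low values were kept (adjusted p = 0.0621) and with only the 4 E13.5 libraries in the fit (0.051). Tgfb1 was at 4.8 and 4.7 RPKM in spinal cord and 3.8 RPKM in both forebrain libraries (0.26 ± 0.082, limma adjusted p = 0.0358), and its call was lost without any 1 of the 4 E13.5 libraries (adjusted p = 0.108 to 0.138) and without either EED-cKO library (0.0559).

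The other 4 genes were not called. Bmp7 was at 10.3 and 9.9 RPKM in spinal cord and 8.6 and 8.0 RPKM in forebrain (log2 change 0.26 ± 0.12 SE, limma adjusted p = 0.121), and Bmp5 at 2.0 and 2.2 RPKM in spinal cord and 1.5 and 1.7 RPKM in forebrain (0.25 ± 0.13, adjusted p = 0.142). For both genes the tissues did not overlap, and both were called without either wt E15.5 library (limma adjusted p = 0.013 and 0.0127 for Bmp7, 0.0343 and 0.0346 for Bmp5). Tgfb2 was at 7.9 and 7.4 RPKM in spinal cord and 8.1 and 8.4 RPKM in forebrain (−0.10 ± 0.096, adjusted p = 0.453). Bmp2, at 0.9 and 0.6 RPKM in spinal cord and 1.0 and 0.8 RPKM in forebrain, overlapped between the tissues (−0.12 ± 0.11, adjusted p = 0.421). In both tissues Bmp7 had the highest mean of the 9 genes. In spinal cord it averaged 10.1 ± 0.283 RPKM (SD, n = 2), above Tgfb2 at 7.65 ± 0.354, and in forebrain Bmp7 at 8.3 ± 0.424 overlapped Tgfb2 at 8.25 ± 0.212.

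Across the 2 comparisons, which share no library but share 1 estimate of the spread, the 9 genes stand side by side as follows. Nog was lower in EED-cKO forebrain (log2 change −0.69) and in spinal cord (−0.97), and Bmp6 (1.06 and 0.64) and Tgfb1 (0.66 and 0.26) were higher in both. Bmp4 (1.19 and −0.43) and Tgfb3 (0.68 and −0.58) were higher in EED-cKO forebrain and lower in spinal cord. Tgfb2, which had the largest change in EED-cKO (1.38), was at −0.10 between the regions. Whether the 2 changes of a gene differ was not tested.

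Of the 75 other pathway genes tested, 20 were higher and 21 lower in spinal cord, with a median log2 change of 0.07. Over all tested genes 21.8% were called higher and 23.9% lower, and the list counts that follow stand beside the same shares. Among ligands Gdf10 was higher (11.1 and 13.2 RPKM in spinal cord, 5.3 and 3.5 RPKM in forebrain, log2 change 1.30 ± 0.17 SE), as was the inhibin subunit gene Inha (0.63 ± 0.089), while Bmp3 (−0.75 ± 0.13) and Gdf5 (−0.62 ± 0.12) were lower. Of 15 receptors 4 were higher and 2 lower, with Rgmb at 100.3 and 94.8 RPKM in spinal cord and 54.4 and 50.8 RPKM in forebrain (0.88 ± 0.077), the activin receptor gene Acvr2a higher by 0.76 ± 0.084, and the BMP receptor gene Bmpr1a at 12.2 and 12.1 RPKM in spinal cord and 19.3 and 21.6 RPKM in forebrain (−0.70 ± 0.11). Rgma, another BMP co-receptor, was at 73.2 and 71.1 RPKM in spinal cord and 55.0 and 47.9 RPKM in forebrain (0.48 ± 0.12). The Rgma call was lost without spinal cord replicate 1 (limma adjusted p = 0.0921) or 2 (0.0711), without forebrain replicate 2 (0.113) and when genes with low values were kept (0.0581). Tgfbr1, the signalling TGF-beta receptor, was at 26.2 and 28 RPKM in spinal cord and 30.4 and 32.9 RPKM in forebrain and was not called (limma adjusted p = 0.316). Of the 8 SMAD genes 2 were higher and 3 lower. Smad4 was lower (−0.51 ± 0.070), as was Smad5, which transmits BMP signals (22.2 and 23.0 RPKM in spinal cord, 30.2 and 31.3 RPKM in forebrain, −0.43 ± 0.14). The Smad5 call was lost without any 1 of the 4 E13.5 libraries (limma adjusted p = 0.116 to 0.163) or either EED-cKO library (0.0811), and when genes with low values were kept (0.108). Smad3 was not called (limma adjusted p = 0.214), and Smad9 was at 1.4 and 0.9 RPKM in spinal cord and 0.5 and 0.3 RPKM in forebrain (0.61 ± 0.14), a call lost without spinal cord replicate 1 (0.44, adjusted p = 0.0589) and without forebrain replicate 2 (0.51, adjusted p = 0.0749) and with only the 4 E13.5 libraries in the fit (adjusted p = 0.0623).

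BMP antagonists were split between the tissues, with 5 higher and 5 lower of 13. Chrd (10.6 and 11.4 RPKM in spinal cord, 5.6 and 5.3 RPKM in forebrain, log2 change 0.90 ± 0.11 SE) and the gremlin gene Grem1 (2.2 and 1.9 RPKM, against 0.6 and 0.3 RPKM, 1.08 ± 0.17) were higher in spinal cord. Follistatin (Fst), which binds activins and BMPs, was at 2.0 and 1.5 RPKM in spinal cord and 4.6 and 4.8 RPKM in forebrain (−1.06 ± 0.11). Fstl1 was at 64.0 and 61.5 RPKM in spinal cord and 56.8 and 61.5 RPKM in forebrain and was not called (limma adjusted p = 0.494). Among genes of TGF-beta latency and activation, Thbs1, an activator of latent TGF-beta, was at 3.7 and 2.9 RPKM in spinal cord and 11.5 and 12.3 RPKM in forebrain (−1.59 ± 0.14), Ltbp4 (7.5 and 6.8 RPKM, against 14.9 and 15.6 RPKM) and Ltbp1 (−0.89 ± 0.15) were lower, and the protease gene Bmp1, which is no BMP ligand, was higher (0.77 ± 0.071). Of 12 BMP targets 3 were higher and 3 lower. Lmx1a (−1.41 ± 0.091), Id4 (−1.06 ± 0.059) and Hey1 (−0.82 ± 0.078) were lower in spinal cord, and Id3 was higher (0.71 ± 0.071). Of 9 TGF-beta targets 2 were higher and 3 lower, with Tgfbi at −0.70 ± 0.14 (not called with only the 4 E13.5 libraries in the fit, limma adjusted p = 0.0517), Ctgf at −0.53 ± 0.11, Cdkn1a at −0.49 ± 0.094 and Pmepa1 at 0.41 ± 0.082.

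Markers of other cells differed between the E13.5 tissues as well. Of 11 choroid plexus and dorsal midline markers 10 were lower in spinal cord and 1 was not called, with Otx2 at 0 in both spinal cord libraries. Of 11 meningeal and mesenchymal markers 5 were higher (Col1a1, Col1a2, Col3a1, Dcn and Aldh1a2) and 2 lower (Foxd1 and Prrx1). The 11 summed to 444.6 and 492.5 RPKM in spinal cord and 263.4 and 273.2 RPKM in forebrain. Aldh1a2 changed most, at 38.5 and 58.1 RPKM in spinal cord and 5.4 and 4.4 RPKM in forebrain. Among the other lists, 1 of 8 endothelial, 3 of 7 pericyte and 6 of 7 tested microglial markers were higher. The microglial sum was 50.8 and 44.6 RPKM in spinal cord and 33.6 and 27.7 RPKM in forebrain. The endothelial sum was 132.5 and 121.3 RPKM, against 92.8 and 98.4 RPKM in forebrain, and the pericyte sum 107.5 and 120.3 RPKM, against 61.0 and 61.9 RPKM in forebrain. Within these sums Cldn5, the only endothelial marker called, was at 54.4 and 53.4 RPKM in spinal cord and 30.5 and 27.7 RPKM in forebrain. Vtn, the pericyte marker with the largest change, was at 61.2 and 73.7 RPKM in spinal cord and 23.3 and 24.5 RPKM in forebrain. The other 7 endothelial markers and 4 of the 7 pericyte markers were not called. The part of non-neural and midline cells in the regional changes of the 9 genes was not tested.

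The genes whose levels over the 8 libraries were most like those of the 3 members with the largest changes in EED-cKO were Npw, Pura and Per3 for Tgfb2 (Pearson r = 0.997, 0.996 and 0.996 on the log2 scale). They were Wdr6, Tspan8 and Stat6 for Bmp7 (0.998, 0.997 and 0.996), and Slc25a53, Gimap9 and Erich2 for Bmp4 (0.996 for each of the 3). These points share 4 groups and 2 ages with different summed RPKM, so such values are a description of the 8 libraries only.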

How the data were processed

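The authors deposited 1 table of RPKM values, which are read counts scaled by gene length and mapped reads, with a column for each of 8 libraries. Per the labels' protocols, total RNA was extracted, NEBNext Ultra libraries were prepared, and about 50000000 single-end reads of 50 bases were sequenced for each, with strand not kept. Per the submitters' processing notes the builds mm9 and GRCm38 were used, without their roles. The aligner and counter are not given in the sources used here. Every value is a multiple of 0.1 RPKM, so steps of single reads cannot be seen. The reads behind a library's values are not known beyond that nominal number, and no counting interval is given. All 8 columns were used.

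The E15.5 values were assigned to alphabetically sorted names (upper and lower case alike, hyphens dropped). Over all rows r between wt forebrain at E15.5 and E13.5 was 0.948 in that order and 0.760 as deposited. Of the 9 genes, 6 changed rows and 3 (the TGF-betas) did not. For 9 symbols listed more than once, only the row of highest mean stayed, and 16 rows were dropped. The test covered the 17022 of 36317 symbols that reached 1 RPKM in 2 or more libraries, as log2(RPKM + 1), in 1 limma 3.58.1 fit (R 4.3.3, eBayes with trend, two-sided) of 4 group means over all 8 libraries with 4 residual degrees of freedom, and p-values were adjusted over all tested genes by the Benjamini-Hochberg method. With 2 libraries against 2, an exact permutation test of 1 gene cannot go below p = 0.333. The fit was tested on simulated data. Other steps used Python 3.11.15, pandas 2.3.3 and matplotlib 3.10.9.

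The 9 genes, the pathway and marker lists and the tests were chosen with earlier results of these data known. All 9 genes are named. Of each pathway list, up to 4 called genes with the largest log2 change in a comparison and up to 2 abundant uncalled genes could be named. The uncalled genes Gdf1, Bmper, Id2 in spinal cord and Rgma in EED-cKO were left out after their values were seen, because they were unstable between settings, while Smad7 in EED-cKO was kept. Other genes that the rule picked were not named either. These were the uncalled Inha, Smad5 and Thbs1 in EED-cKO. In spinal cord they were the uncalled Lefty2, Acvr2b, Smad7, Sostdc1, Ltbp3, Furin, Msx1 and Ski, and the called Smad2. All 179 list entries matched the table. The 3 members with the largest called changes in EED-cKO were given their 3 most correlated genes. Alternatives were another pseudocount (0.1), no filter, the deposited row order, genes in the same row in both orders, median-ratio scaling, quantile normalization, a fit of only the 4 libraries compared, a replicate block, and each library left out.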

Additional observations from a re-analysis of the deposited data

How the results depend on the processing

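All 9 genes kept their direction in EED-cKO forebrain under both scalings, the other pseudocount, no filter, the replicate blocks, the fit of 4 libraries and each library left out. Under the deposited row order the names of the 5 BMPs, Nog, Gdf10, Gdf15, Nbl1 and Lrrc32, among others, stand beside other genes' values. Nog was then at 0.13, Gdf15 at −0.41 and Lrrc32 at −0.11, while Gdf10 was at 0.51 and not called (limma adjusted p = 0.055). Bmp2 was at 0 in all 4 E15.5 libraries and has no value. Smad7, not called, was at −0.084 after quantile normalization. Of other genes not called in EED-cKO, 4 were called with 1 library left out. Chrd was then at 0.45 (without EED-cKO replicate 2) and Ski at −0.26 (without wt E15.5 replicate 2). Furin was at 0.36 and Skil at 0.37, both without wt E15.5 replicate 1. Median-ratio scaling changed no count of the 9 genes. Of 8 genes called higher and 1 lower, 5 and 0 were called under the deposited order, and 3 and 0 with only the same-row genes, since 6 of the 9 are then left out. That setting called 4929 genes in all in EED-cKO and 4792 between the regions, against 7987 and 7784, because fewer genes were tested. A fit of only the 4 E15.5 libraries called 4777, with 7 of the 9 genes higher and 1 lower. Its limma adjusted p was 0.0173 for Bmp7, 0.0122 for Tgfb2, 0.0215 for Nog and 0.0661 for Tgfb3, which was not called. With 1 library left out, EED-cKO calls numbered 4922 (without EED-cKO replicate 2) to 9606 (without wt E15.5 replicate 1), for the 9 genes 7 to 8 higher and 1 lower, and for other pathway genes 33 to 47 higher and 5 (without EED-cKO replicate 2) to 13 lower. Between the regions, such fits called 5205 (without forebrain replicate 2) to 9320 (without wt E15.5 replicate 2) genes, 1 to 4 of the 9 higher and 1 to 3 lower, and 12 (without forebrain replicate 2; 13 without spinal cord replicate 1) to 23 pathway genes higher and 17 to 24 lower, and the log2 change of Bmp2 ran from −0.25 (without spinal cord replicate 1) to 0.002 (without replicate 2). Without the filter 1 of the 9 was lower in spinal cord, and with same-row genes 1 higher and 1 lower. The cause of these changes was not tested.

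Equal replicate numbers were not taken as pairs in the main fit. Over 17022 genes, the difference between replicates 1 and 2 correlated between the 2 groups compared at r = −0.124 at E15.5 and 0.211 at E13.5. With 2 libraries in each group, each r rests on 1 difference per group. It cannot decide whether same-numbered libraries belong together. With a replicate block in the 4 libraries compared, EED-cKO calls numbered 1182 in all, 2 of the 9 higher (Bmp7 and Tgfb2) and 0 lower, and 15 pathway genes higher and 1 lower. Between the regions the replicate block called 1 of the 9 higher, Bmp5 (adjusted p = 0.0465), which was not called without it, and 2 lower, Nog and Tgfb3. The calls of Bmp6 (0.0502), Tgfb1 (0.0732) and Bmp4 (0.117) were lost. With the numbers crossed, an alternative added after seeing the data, 3870 genes were called, 7 of the 9 higher and 1 lower, and 28 pathway genes higher and 5 lower. Values under 1 RPKM rest on the 0.1 rounding and are imprecise.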
